A study of Mus musculus with 18 samples.

Results

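Cxcl1, Cxcl2, Cxcl3 and Cxcl5 encode small secreted proteins that attract neutrophils, and their transcripts were followed here in cultured normal fibroblasts (NFs) of the mouse mammary gland. The 4 genes were picked by symbol from the 55486 genes of the count table. All 4 had enough reads to be tested, together with 14273 genes in all. Cxcl2 and Cxcl3 reached the test through the other groups, since they had between 3 and 11 reads per library in CD26+ NFs kept in control medium.

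The study asked how 2 populations of NFs respond to factors released by tumor cells. Fibroblasts of FVB/n mammary glands were sorted by the surface peptidase CD26, the product of Dpp4, and given either control medium or the conditioned medium (CM) of mouse mammary tumor cells over 7 days of culture. These tumors arose in mice in which Wap-driven Cre removes floxed alleles, Cdh1 among them, in the mammary epithelium, a model of invasive lobular carcinoma. The 18 libraries of polyadenylated RNA formed 4 groups. Replicates 1 to 3 were CD26- NFs and replicates 10 to 12 CD26+ NFs, all with control medium, whereas 4 to 9 (CD26-) and 13 to 18 (CD26+) received CM. All NFs had the same FVB/n background. The CM came from 6 tumor lines, and each line gave CM to 1 library of each cell type. By the study's methods, the glands of several adult female mice were pooled for a sort. Whether the libraries of a group came from separate sorts or cultures is not stated, so p-values measure the spread between these libraries.

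CXC chemokines with an ELR (Glu-Leu-Arg) sequence before the CXC motif bind Cxcr2 on neutrophils and draw these cells out of the blood into inflamed tissue and tumors. Fibroblasts and epithelial cells make them when interleukin 1, tumor necrosis factor or microbial products activate the transcription factor NF-kB. Their transcripts are kept short-lived by proteins that recognise AU-rich stretches or stem loops in the 3' untranslated region.

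The members lie within 146.6 kb on the plus strand of chromosome 5 (GRCm38). Cxcl5 (ENSMUSG00000029371) is at chr5:90759360-90761624, Cxcl3 (ENSMUSG00000029379) at chr5:90786103-90789600, Cxcl1 (ENSMUSG00000029380) at chr5:90891241-90893115 and Cxcl2 (ENSMUSG00000058427) at chr5:90903871-90905938. Each is a protein-coding gene whose principal transcript has 4 exons, and no other annotated gene overlaps any of them. Cxcl2 and Cxcl3 are close copies with an identical run of 110 bases, so 46 start positions of a 65-base read, out of 1045 in Cxcl2 and 952 in Cxcl3, cannot be assigned to either. That length is the one the labels give for the HiSeq runs. The labels name a NovaSeq as well, and which library ran on which instrument is not given in the sources used here. Cxcl1 shared no such position with another gene, and Cxcl5 shared 32 of 1511 positions with 2 genes outside the family.

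The promoters are shown because the members moved together with CM. RefSeq promoters, from 250 bases before the start of transcription to 50 bases after it, were at hand for Cxcl1, Cxcl2 and Cxcl3 and not for Cxcl5. The sequences below are the plus strand of GRCm38.p6, with matches to the NF-kB consensus in capitals, at chr5:90890995-90891294 for Cxcl1, chr5:90903649-90903948 for Cxcl2 and chr5:90785851-90786150 for Cxcl3.
Cxcl1: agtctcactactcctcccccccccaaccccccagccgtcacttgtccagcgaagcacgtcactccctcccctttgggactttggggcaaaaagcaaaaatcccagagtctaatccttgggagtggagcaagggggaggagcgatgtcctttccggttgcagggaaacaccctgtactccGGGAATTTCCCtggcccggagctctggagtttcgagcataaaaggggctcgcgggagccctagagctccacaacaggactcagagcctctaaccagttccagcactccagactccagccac
Cxcl2: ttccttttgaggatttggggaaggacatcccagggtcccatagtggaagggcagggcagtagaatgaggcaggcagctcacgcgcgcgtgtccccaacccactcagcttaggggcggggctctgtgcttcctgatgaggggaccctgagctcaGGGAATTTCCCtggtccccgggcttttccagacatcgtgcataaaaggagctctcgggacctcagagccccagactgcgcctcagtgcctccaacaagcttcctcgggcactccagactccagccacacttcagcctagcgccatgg
Cxcl3: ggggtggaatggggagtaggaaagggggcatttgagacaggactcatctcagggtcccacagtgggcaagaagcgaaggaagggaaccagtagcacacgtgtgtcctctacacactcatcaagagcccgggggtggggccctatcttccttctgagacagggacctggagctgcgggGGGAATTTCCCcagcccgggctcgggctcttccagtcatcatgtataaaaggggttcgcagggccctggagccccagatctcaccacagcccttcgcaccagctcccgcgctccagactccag
Each promoter held the same pair of overlapping NF-kB matches, GGGAATTTCC and GGAATTTCCC. Their first base lies 71 bases before the RefSeq start of Cxcl1, 97 before that of Cxcl2 and 73 before that of Cxcl3. These starts differ from the gene starts given above, so the distances depend on the annotation. A match to the consensus on either strand occurred in 8.46% of 32851 promoters of this length, while the letters GGGAATTTCC occurred in 0.0883% and GGAATTTCCC in 0.11%. The TATA box letters TATAAA were present only in Cxcl3, 30 bases before the start, against 13.6% of all promoters. The search took exact letters, and the sequences of Cxcl1 and Cxcl2 hold CATAAA, which differs in its first base. The C/EBP letters TTNNGNAA matched only in Cxcl2, 236 bases before the start, against 40.7%, and the AP-1 letters TGANTCA matched in none of the 3, against 7.81%. These matches describe letters in the window and are no measure of binding.

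The 3' untranslated regions are shown by their densest window of ATTTA, the core of AU-rich elements. The ATTTA search was added after the count data had been seen. Windows of 30 bases, plus strand, from GENCODE M21 transcripts, with ATTTA in capitals, lie at chr5:90892602-90892631 for Cxcl1, chr5:90905327-90905356 for Cxcl2, chr5:90787629-90787658 for Cxcl3 and chr5:90760634-90760663 for Cxcl5.
Cxcl1: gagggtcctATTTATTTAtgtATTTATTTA
Cxcl2: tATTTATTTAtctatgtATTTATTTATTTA
Cxcl3: caagatggcatcttATTTAatgtttATTTA
Cxcl5: agcttcctgctcatctcacaagtgtATTTA
Over the whole region, Cxcl2 held 11 copies in 734 bases, Cxcl1 held 7 in 592, Cxcl3 held 5 in 645 and Cxcl5 held 5 in 1111. The median over 20485 coding genes was 1 copy, and 36.6% of these genes had none. Per kb, Cxcl2 had 15.0 copies and Cxcl1 had 11.8, a density reached by 0.42% and 0.845% of genes. Cxcl3 had 7.75 copies per kb and Cxcl5 had 4.5, densities reached by 2.7% and 10.3%.

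Libraries held between 9725723 and 14585349 counted reads. Fibroblast markers were abundant in every library, with a summed level of the 10 genes between 9816 and 79515 CPM (reads per 1e+06 reads of the scaled library). Leukocyte markers were far lower, with 11 genes summing to between 18.8 and 34.3 CPM, mostly Csf1r. That sum is not small beside Cxcl2, whose group means were between 0.333 and 6.12 CPM. Ptprc, which encodes the leukocyte antigen CD45, had at most 3 reads in any library. Dpp4 did not separate the sorted populations in control medium, with 0 to 2 reads in CD26- and 0 to 1 read in CD26+ libraries, and in CM it had 1 to 11 and 8 to 104 reads. The sort had kept cells negative for CD45 and for the endothelial antigen CD31 as well as for EpCAM and CD49f. Epithelial markers were present all the same, and 10 of 11 were lower in CD26+ than in CD26- NFs in both media, where 25.4% of all tested genes were in control medium and 29.3% in CM. The library of CD26+ NFs in CM with replicate number 18, which received CM of line 13-MCB-138, stood apart. Its median correlation with the other libraries of its group was 0.979 over 14273 genes, against 0.983 to 0.993 for the other 17 libraries.

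**Figure D1:**
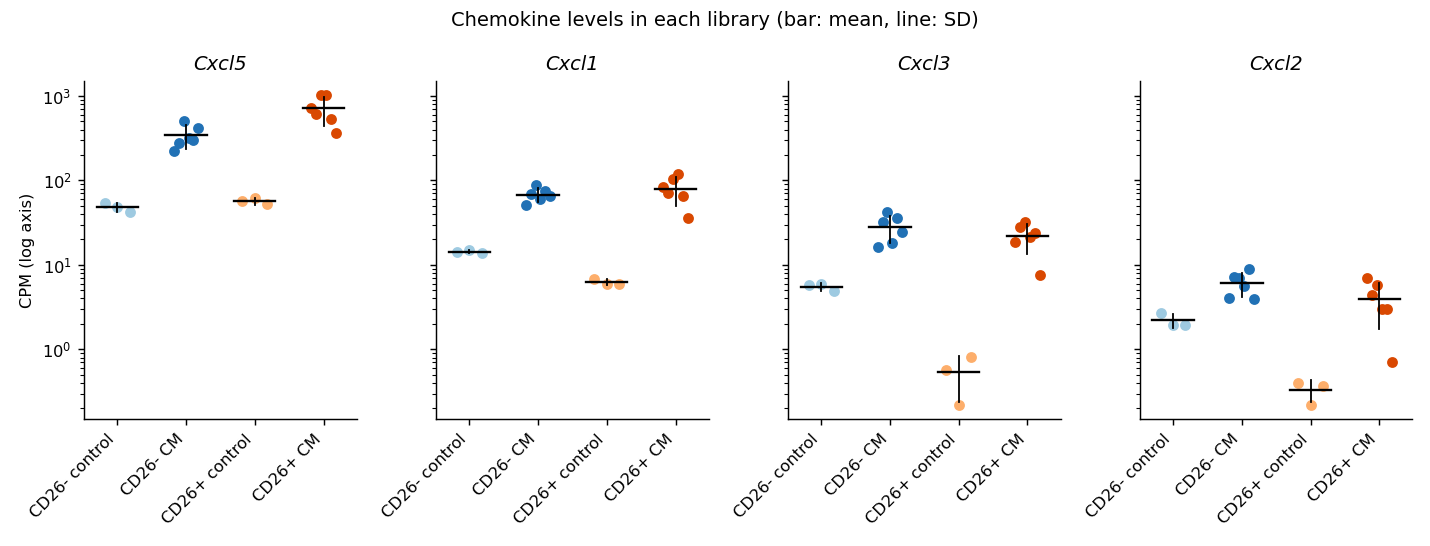
Level of each chemokine in each of the 18 libraries by group, as CPM on a log axis. Points are libraries, the horizontal bar is the group mean and the vertical line is the SD. All CM libraries sit above all control libraries of the same cell type for the 4 genes, and replicate 18 is the lowest point of CD26+ CM in each panel.

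Cxcl5 was the most abundant of the 4 transcripts in each group, and Cxcl2 was the least abundant. Per kb of transcript, Cxcl5 ranked first in CD26- NFs in control medium with 30.5 ± 3.70 CPM per kb (SD, n = 3), followed by Cxcl1 with 15.0 ± 0.524, Cxcl3 with 5.43 ± 0.568 and Cxcl2 with 2.00 ± 0.389. The order was the same in CD26+ NFs in control medium, at 36.1 ± 3.20 for Cxcl5, 6.56 ± 0.575 for Cxcl1, 0.527 ± 0.294 for Cxcl3 and 0.300 ± 0.0876 for Cxcl2. In that group the levels of Cxcl3 and Cxcl2 did not differ beyond their spread. In CM the order held again, with 217 ± 66.4, 71.2 ± 13.3, 27.7 ± 10.0 and 5.52 ± 1.75 CPM per kb in CD26- NFs (n = 6) and 452 ± 170, 83.7 ± 30.9, 21.6 ± 8.38 and 3.58 ± 1.99 in CD26+ NFs (n = 6). In bulk RNA of this kind, fewer cells that make a transcript and less transcript per cell cannot be told apart.

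The effect of tumor CM on CD26- NFs was asked first. Cxcl5, which encodes the chemokine LIX, was at 53.8, 48.2 and 42.2 CPM in the control libraries and at 223 (lowest), 313 (median) and 510 CPM (highest) in the 6 CM libraries. Cxcl1, the mouse keratinocyte-derived chemokine KC, was at 14.2, 14.9 and 13.9 CPM in control medium and at 51.1, 66.8 and 88.2 CPM in CM. No CM library of either gene reached down to the control range, a pattern shown by 10% of tested genes. Cxcl3, a ligand of the same receptor, was at 5.71, 5.98 and 4.87 CPM in control medium and at 16.1, 28.4 and 41.8 CPM in CM. Cxcl2, the macrophage inflammatory protein MIP-2, had 2.71, 1.96 and 1.96 CPM in control medium and 3.98, 6.25 and 8.92 CPM in CM, where the lowest CM library was still above the highest control library. All 4 genes rose, 4 of 4 past an edgeR false discovery rate (FDR) of 0.05, where 7.88% of the 14273 tested genes rose. The median log2 fold change was 2.30 over the 4 genes and 0.00519 over all tested genes. Of the 4 leukocyte markers tested, of 11, 1 rose with CM in each cell type, the neutrophil gene S100a8, by 2.37 (FDR 0.0143) in CD26- and 3.24 (FDR 0.0251) in CD26+ NFs on the log2 scale. Each S100a8 call was lost without any 1 of its 3 control libraries, with an FDR of up to 0.0720 and 0.0933, and the second also without CM replicate 14 or line 10-SJK-221. Of the 3 endothelial markers tested in CD26- NFs, Cdh5 rose by 1.22 (FDR 0.0121, up to 0.0701 without CD26- control replicate 1 or 3), while Tek was at -0.67 (FDR 0.363) and Kdr at -0.35 (FDR 0.630), the median of the list. The sort gate had removed CD45+ and CD31+ cells, and the part of any that remained in the chemokine levels was not tested.

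Cxcl5 changed most in CD26- NFs, by a log2 fold change of 2.83 ± 0.32 (SE, FDR 9.33e-05), which is 7.13-fold with a 95% interval of 4.44 to 11.4. It ranked 12 of all tested genes by p. Cxcl3 rose by 2.36 ± 0.40 (FDR 0.00110) and Cxcl1 by 2.25 ± 0.29 (FDR 0.000194) on the log2 scale. The smallest change was that of Cxcl2, at 1.48 ± 0.43 (FDR 0.0286). This call for Cxcl2 was lost without any of the 3 control libraries (FDR 0.0655, 0.0960 and 0.131 without replicates 1, 2 and 3), without CM replicate 5 (0.0524) or 8 (0.0569), and without both libraries of CM line 10-SJK-221 (0.0600), 18-MCB-12 (0.0535) or 13-MCB-90 (0.0664). No leave-one-out fit ended the call of the other 3 genes, for which the highest FDR was 0.0145.

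In CD26+ NFs the same media were compared with their own controls. Cxcl5 was at 56.4, 62.1 and 52.0 CPM in control medium and at 362, 667 and 1024 CPM (lowest, median, highest) in CM. Cxcl1 was at 6.88, 5.93 and 5.94 CPM in control medium and at 35.6, 77.8 and 118 CPM in CM. Both genes were above the control range in all 6 CM libraries, as were 13.7% of tested genes, with wider spread than in CD26- NFs. Cxcl3 was at 0.567, 0.222 and 0.816 CPM in control medium, from 7, 3 and 11 reads, and at 7.51, 22.5 and 32.0 CPM in CM. Cxcl2 was at 0.405, 0.222 and 0.371 CPM in control medium, from 5, 3 and 5 reads, and at 0.715, 3.72 and 6.90 CPM in CM. For these 2 genes the control level rested on few reads, and the lowest CM library of Cxcl2 held 8 reads.

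All 4 genes rose in CD26+ NFs, where 15.2% of tested genes did, with a median log2 fold change of 3.66 against -0.00396 over all tested genes. Cxcl3 rose most, by 5.34 ± 0.58 (SE, FDR 5.04e-06), or 40.4-fold with a 95% interval of 17.3 to 94.5. From reads alone, 1623 in CM against 21 in control medium, its ratio was 41.4 with a counting interval of 27.0 to 67.0. Cxcl1 rose by 3.68 ± 0.32 (FDR 6.15e-07), Cxcl5 by 3.65 ± 0.34 (FDR 1.07e-06) and Cxcl2 by 3.56 ± 0.63 (FDR 0.000473) on the log2 scale. The reads of Cxcl2, 298 in CM against 13 in control medium, gave a ratio of 12.3 with a counting interval of 7.07 to 23.3. Each call held in all 24 leave-one-out fits, with log2 fold changes between 4.95 and 5.78 for Cxcl3, 3.52 and 3.83 for Cxcl1, 3.51 and 3.78 for Cxcl5 and 3.32 and 3.77 for Cxcl2.

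**Figure D2:**
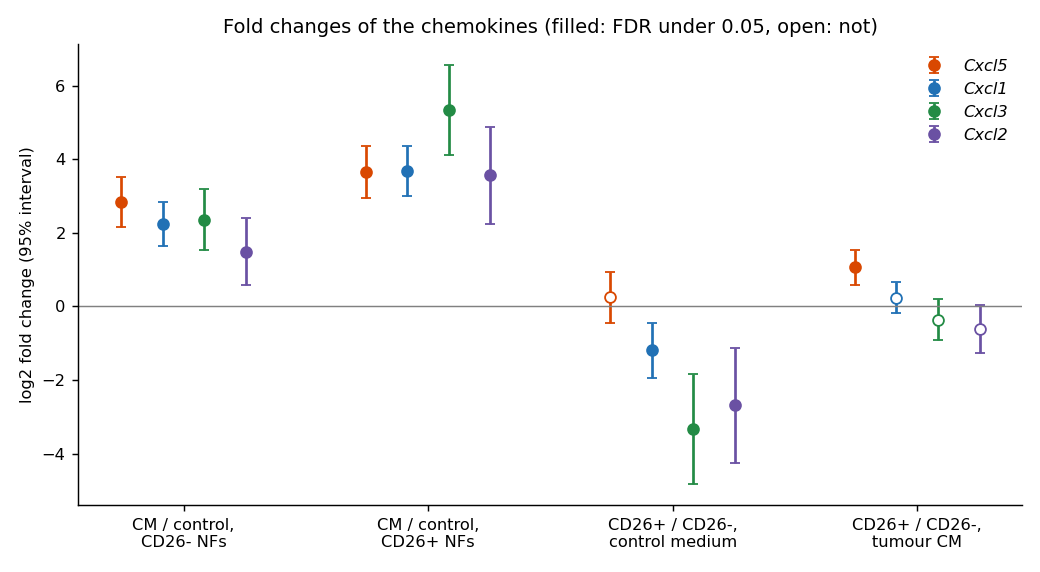
Log2 fold changes of the 4 chemokines in 4 comparisons, with 95% intervals from the edgeR fit. Filled points passed an FDR of 0.05 and open points did not. The 8 points for CM against control medium are filled and lie between 1.48 and 5.34, and Cxcl5 is the only open point in control medium and the only filled point in tumor CM.

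In cultures that received control medium, 3 of the 4 genes were lower in CD26+ than in CD26- NFs, in a comparison where 25.4% of tested genes were lower. The groups of Cxcl1, Cxcl2 and Cxcl3 did not overlap, as held in the same direction for 32% of tested genes. The highest CD26+ library was at 6.88, 0.405 and 0.816 CPM and the lowest CD26- library at 13.9, 1.96 and 4.87 CPM. Cxcl3 was lower by a log2 fold change of -3.34 ± 0.71 (FDR 0.000795), Cxcl2 by -2.69 ± 0.74 (FDR 0.00561) and Cxcl1 by -1.20 ± 0.36 (FDR 0.00983). Cxcl5 overlapped between the cell types, with a log2 fold change of 0.24 ± 0.33 and a 95% interval of -0.46 to 0.95 (FDR 0.571). A fit of the 2 control groups alone put Cxcl5 past the threshold with the same size (0.24, FDR 0.0367). The median over the 4 genes was -1.94, against 0.00636 over all tested genes.

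Epithelial markers moved in the same direction as these 3 genes. Their 11 genes summed to between 4855 and 5472 CPM in the CD26- control libraries and to between 765 and 1428 CPM in the CD26+ control libraries, and the median log2 fold change of the list was -2.13. Fibroblast markers moved the other way, between 16534 and 18495 CPM in CD26- and between 62532 and 79515 CPM in CD26+ control libraries. The 6 endothelial markers summed to at most 5.14 CPM in CD26- and at most 2.96 CPM in CD26+ control libraries, with Cldn5 at 0 reads in both groups. Of the 3 that were tested, Cdh5 was lower by -2.17 on the log2 scale (FDR 0.000996). Kdr, at -0.95 (FDR 0.146), and Tek, at 0.30 (FDR 0.639), were not called. Of the 4 leukocyte markers tested, Cd68, a macrophage gene, was at -0.70 in CD26+ against CD26- NFs with control medium (FDR 0.0436, past the threshold in 7 of 18 fits that each left out 1 library). The other 3 were not called there, with S100a8 at -2.85 (FDR 0.0535), Lyz2 at -0.36 and Csf1r at -0.30 (FDR 0.280). In CM both Cd68 (-1.08, FDR 9.78e-05) and S100a8 (-1.98, FDR 0.000949) were lower. Csf1r, at 0.24 (FDR 0.197), and Lyz2, at -0.13, were not called in CM. The part of these cells in the chemokine levels of the control libraries was not tested. With CM, 0 of the 11 epithelial markers passed the test in either cell type. The epithelial sum was then between 3294 and 5320 CPM in CD26- and between 734 and 1777 CPM in CD26+ NFs. Of the 10 fibroblast markers, 4 rose and 2 fell with CM in CD26- NFs, where 7.88% and 7.28% of all tested genes did. In CD26+ NFs 3 rose and 5 fell, where 15.2% and 13.4% did. The fibroblast sum in CM was between 9816 and 21491 CPM in CD26- and between 29198 and 52139 CPM in CD26+ NFs.

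In tumor CM the cell types differed for 1 of the 4 genes, where 29.3% of tested genes were higher in CD26+ NFs and 29.3% lower. Cxcl5 was higher in CD26+ NFs, at 712 ± 268 CPM (SD, n = 6) against 342 ± 105, a log2 fold change of 1.06 ± 0.23 (SE, FDR 0.000625). Its groups overlapped, since the CD26+ library with replicate number 18 was at 362 CPM and the highest CD26- library at 510 CPM. Cxcl1 was at 79.8 ± 29.4 CPM in CD26+ and 67.9 ± 12.7 in CD26- NFs, a log2 difference of 0.23 with an interval of -0.18 to 0.65 (FDR 0.325). For Cxcl3 the levels were 21.9 ± 8.51 and 28.1 ± 10.2 CPM, a difference of -0.36 with an interval of -0.92 to 0.20 (FDR 0.258). For Cxcl2 they were 3.97 ± 2.21 and 6.12 ± 1.94 CPM, a difference of -0.62 with an interval of -1.28 to 0.05 (FDR 0.101). The median over the 4 genes was -0.06, against -0.000114 over all tested genes.

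The libraries of the 2 cell types can be paired by the tumor line that gave the CM. With the line as a block, Cxcl2 was lower in CD26+ NFs, by -0.65 ± 0.25 (FDR 0.0337), and Cxcl5 stayed higher. Without line 13-MCB-138, the blocked difference of Cxcl2 was -0.50 (FDR 0.0602) and that of Cxcl1 was 0.36 (FDR 0.0130). Cxcl2 also passed in the fit without the line when CD26+ CM replicate 13 was left out (-0.85, FDR 0.0283) or both libraries of line 13-MCB-17 (-0.94, FDR 0.0197). Cxcl1 was higher in CD26+ NFs without CD26+ CM replicate 18 (0.38, FDR 0.0287) or without both libraries of line 13-MCB-138 (0.37, FDR 0.0442). The Cxcl1 difference was 0.08 (FDR 0.730) without CD26+ CM replicate 16 and 0.06 (FDR 0.831) without line 13-MCB-44, and that of Cxcl2 was -0.41 (FDR 0.144) without replicate 18. The Cxcl3 difference was -0.19 (FDR 0.459) without CD26+ CM replicate 18, -0.21 (FDR 0.523) without CD26- CM replicate 6 and -0.22 (FDR 0.410) without line 13-MCB-138.

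The difference between the CM effects, CD26+ minus CD26- NFs, was positive for all 4 genes and passed the test for 2 of them, where 4.53% of tested genes passed with a positive and 3.01% with a negative difference. The genes that passed were Cxcl3, with 2.98 ± 0.78 on the log2 scale (FDR 0.0284), and Cxcl1, with 1.43 ± 0.41 (FDR 0.0413). Cxcl2 had 2.08 ± 0.82 with an interval of 0.34 to 3.81 (FDR 0.123), and Cxcl5 had 0.81 ± 0.40 with an interval of -0.04 to 1.66 (FDR 0.220). The same 6 control libraries enter this difference, both CM effects and the comparison in control medium, so these are not independent results. The epithelial markers that differ between those control groups are given above, and their part was not tested.

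Both calls were close to the threshold. Without any of the 6 control libraries neither gene passed, with an FDR between 0.0558 and 0.109 for Cxcl3 and between 0.0764 and 0.118 for Cxcl1. Cxcl3 was also lost without CM line 10-SJK-221 (FDR 0.0521), and Cxcl1 passed in 5 of 24 leave-one-out fits. The size of the difference moved less than its call, between 2.59 and 3.42 for Cxcl3 and between 1.25 and 1.57 for Cxcl1. Without replicate 18, which stood apart, the difference was 3.14 (FDR 0.00258) for Cxcl3, 2.27 (FDR 0.0175) for Cxcl2, 1.57 (FDR 0.00169) for Cxcl1 and 0.94 (FDR 0.0738) for Cxcl5.

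Levels of the 4 genes varied between libraries given CM of different tumor lines. In CD26- NFs, CM of 18-MCB-12 gave the highest Cxcl5 (510 CPM), Cxcl3 (41.8 CPM) and Cxcl1 (88.2 CPM), and CM of 13-MCB-17 gave the lowest of these 3 genes, at 223, 16.1 and 51.1 CPM. Cxcl2 was highest with 13-MCB-90 (8.92 CPM) and lowest with 13-MCB-138 (3.98 CPM). In CD26+ NFs, CM of 13-MCB-138 gave the lowest level of all 4 genes, at 362 CPM for Cxcl5, 35.6 for Cxcl1, 7.51 for Cxcl3 and 0.715 for Cxcl2. The same CM gave CD26- NFs the second highest Cxcl5 of the 6 lines, at 418 CPM, and the lowest Cxcl2. Each line and cell type was measured in a single library, so the line and the library cannot be told apart.

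With CM of each line, levels were above the mean of the own control group in both cell types. The fold over control ran from 4.63 to 10.6 for Cxcl5, from 3.57 to 6.16 for Cxcl1, from 2.91 to 7.58 for Cxcl3 and from 1.80 to 4.03 for Cxcl2 in CD26- NFs. In CD26+ NFs it ran from 6.38 to 18.0 for Cxcl5, from 5.69 to 18.8 for Cxcl1, from 14.0 to 59.8 for Cxcl3 and from 2.15 to 20.7 for Cxcl2. The fold was larger in CD26+ than in CD26- NFs for 6 of 6 lines for Cxcl1, Cxcl2 and Cxcl3 and for 5 of 6 lines for Cxcl5, all against the same control libraries. In level, the CD26+ library was the higher of a pair for 5 of 6 lines for Cxcl5, 4 for Cxcl1, 2 for Cxcl3 and 1 for Cxcl2.

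**Figure D3:**
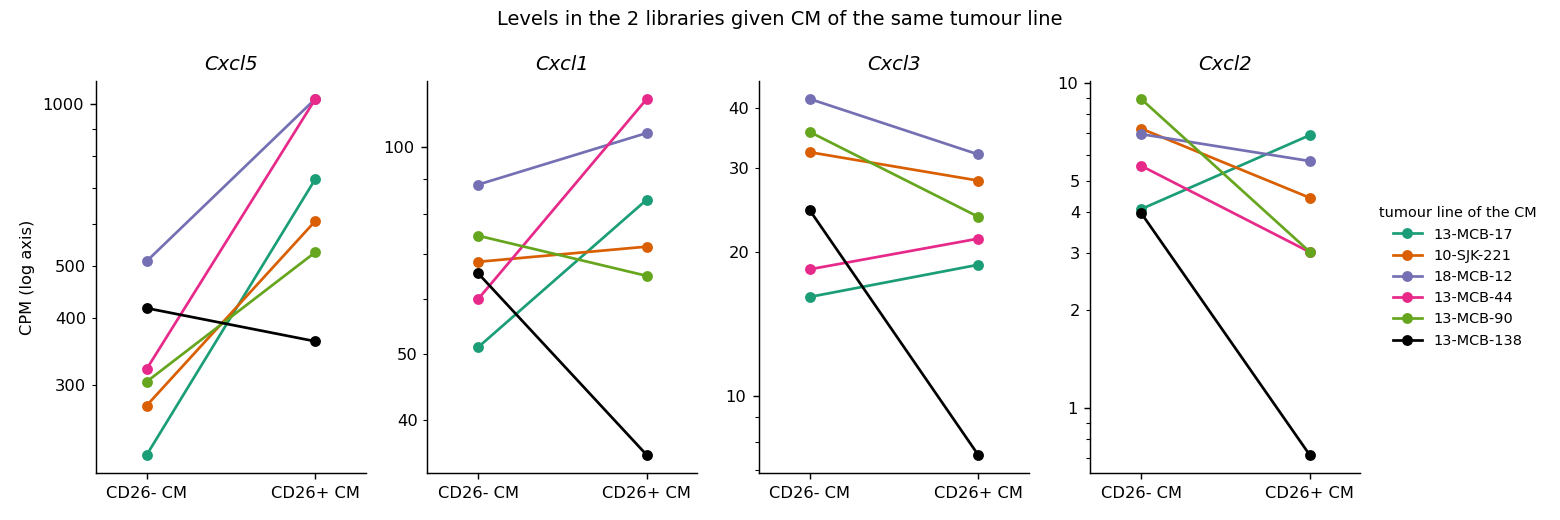
Level of each chemokine in the pair of libraries that received CM of the same tumor line, CD26- at the left and CD26+ at the right, as CPM on log axes that differ between panels. Each line joins 1 pair. The black line for 13-MCB-138 falls in all 4 panels, and the other 5 lines rise in the panel of Cxcl5.

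No relation between the levels that the lines gave in CD26- and in CD26+ NFs passed a test over 6 pairs. Pearson's r of log2 CPM was 0.0343 for Cxcl1, 0.323 for Cxcl2, 0.427 for Cxcl3 and 0.0569 for Cxcl5, with Spearman's rho of -0.143, 0.200, 0.771 and 0.200. The exact two-sided permutation p of r was 0.946, 0.588, 0.450 and 0.921 in that order, and 0.946 for each gene after Benjamini-Hochberg adjustment over the 4 genes. For rho the exact permutation p was 0.803, 0.714, 0.103 and 0.714, and 0.803, 0.803, 0.411 and 0.803 after adjustment. The smallest p that 6 pairs allow is 0.00278. Without the 2 lines farthest from the median in CD26- NFs, r over the other 4 was -0.383 for Cxcl1, -0.00881 for Cxcl2, 0.914 for Cxcl3 and -0.55 for Cxcl5, so the values rest on few lines. Without line 13-MCB-138 alone, r over 5 lines was -0.0243 for Cxcl1, -0.567 for Cxcl2, 0.896 for Cxcl3 and 0.569 for Cxcl5.

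**Figure D4:**
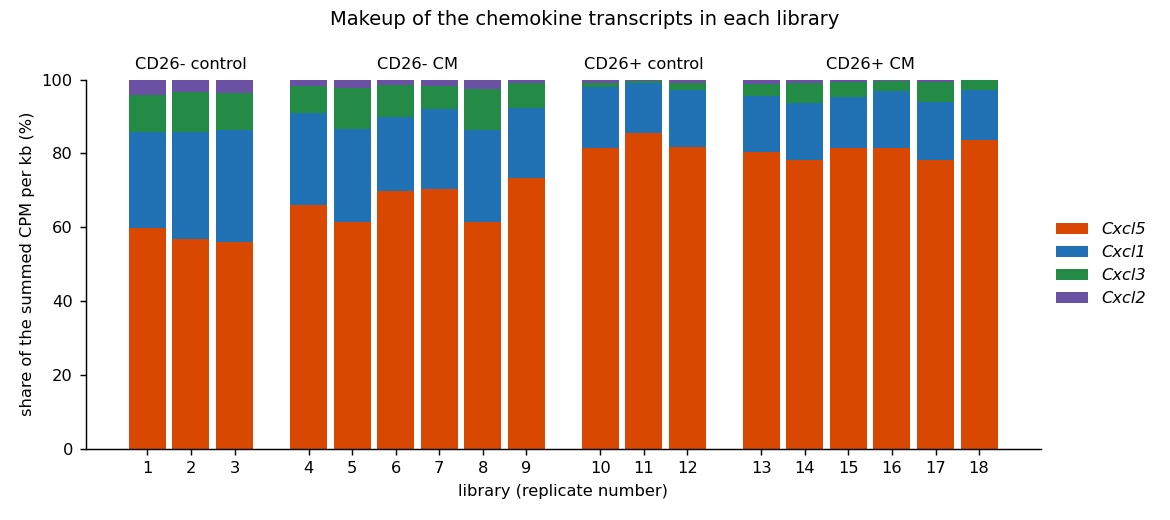
Share of each chemokine in the summed CPM per kb of the 4 genes, in percent, for each of the 18 libraries in their groups. Cxcl5 takes 55.9 to 73.3% of the bar in CD26- libraries and 78.2 to 85.6% in CD26+ libraries.

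Among the 4 members, Cxcl5 took a larger share of the transcripts in each CD26+ library than in any CD26- library. Ppbp, another CXC ligand gene of the locus, is not part of this sum, and its levels are given below. Of the summed CPM per kb of the 4 genes, Cxcl5 made up 57.5 ± 2.03% (SD, n = 3) in CD26- NFs in control medium and 67.0 ± 4.94% (n = 6) in CM. In CD26+ NFs it made up 82.9 ± 2.29% (n = 3) and 80.6 ± 2.09% (n = 6). The lowest CD26+ library, at 78.2%, was above the highest CD26- library, at 73.3%. Cxcl3 made up 10.3 ± 0.589% and 8.59 ± 2.20% in CD26- NFs and 1.24 ± 0.757% and 3.92 ± 1.33% in CD26+ NFs. The sum itself went from 53.0 ± 4.70 to 322 ± 84.6 CPM per kb with CM in CD26- NFs and from 43.5 ± 2.86 to 561 ± 207 in CD26+ NFs. These shares were not tested, and they change with the transcript chosen for the length of each gene.

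Of 7 other CXC ligand genes of chromosome 5, only Ppbp, the platelet basic protein gene that lies between Cxcl5 and Cxcl3, had enough reads to be tested. Ppbp was at 67.3 ± 6.81 CPM (SD, n = 3) in CD26- and 3.50 ± 1.33 CPM in CD26+ NFs in control medium, a log2 fold change of -4.27 ± 0.39 (SE, FDR 1.64e-07). Its change with CM was -0.10 ± 0.26 (FDR 0.836) in CD26- and 0.36 ± 0.41 (FDR 0.551) in CD26+ NFs. Cxcl15, the lungkine gene next to Cxcl3, had 0 to 16 reads per library, and the interferon-induced Cxcl9, Cxcl10 and Cxcl11 had at most 12. The receptor genes of the members had too few reads for a test. Cxcr1 had 0 reads in all libraries, Cxcr2 at most 1 read and the decoy receptor gene Ackr1 at most 15.

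Of 28 other genes of the table around the members, within a window of 5e+05 bases on either side, 10 were tested. CD26- NFs had 1 gene that rose with CM and 1 that fell, where 7.88% and 7.28% of all tested genes did. CD26+ NFs had 5 that rose, where 15.2% of all tested genes did, and 0 that fell, where 13.4% did. The difference between the CM effects passed for 1 of the 10, Ereg, with a positive sign, where 4.53% of all tested genes passed with that sign and 3.01% with a negative one. The smallest of the 5 was Ankrd17, with 0.16 ± 0.05 (FDR 0.0172, up to 0.104 without CD26+ control replicate 10 or 11). Ereg, which encodes the EGF receptor ligand epiregulin, rose in both, by 0.75 ± 0.20 (FDR 0.0197) and 2.07 ± 0.22 (FDR 4.74e-06), with a difference of 1.31 ± 0.29 (FDR 0.0120). In CD26- NFs the Ereg call was lost without control replicate 1 or 3 (FDR up to 0.0955), and its difference was lost without CD26+ control replicate 11 (FDR 0.0584). Epgn, for the related ligand epigen, fell by 0.86 on the log2 scale in CD26- NFs (FDR 0.0256) and was at -0.69 ± 0.36 in CD26+ NFs (FDR 0.162). The Epgn call held in 16 of 24 fits that each left out 1 library or line. It was lost without any 1 of the CD26- control libraries, CM replicate 4 or 6, or line 13-MCB-17, 10-SJK-221 or 18-MCB-12, with an FDR of up to 0.114. Areg, for amphiregulin, was at -0.13 ± 0.25 (FDR 0.762) and -0.03 ± 0.31 (FDR 0.954). Btc, for betacellulin, was at 0.96 ± 0.40 (FDR 0.113) and rose by 1.60 ± 0.44 (FDR 0.0114, and 0.0518 in a fit of the 2 CD26+ groups alone) in CD26+ NFs. Mthfd2l, a folate enzyme gene next to Cxcl2, was at 0.18 ± 0.11 (FDR 0.270) in CD26- NFs and rose by 0.45 ± 0.11 (FDR 0.00419) in CD26+ NFs. In control medium, Ppbp, Ereg, Epgn, Areg and Rassf6 were lower in CD26+ than in CD26- NFs, 5 of the 10, where 25.4% of all tested genes were.

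**Figure D5:**
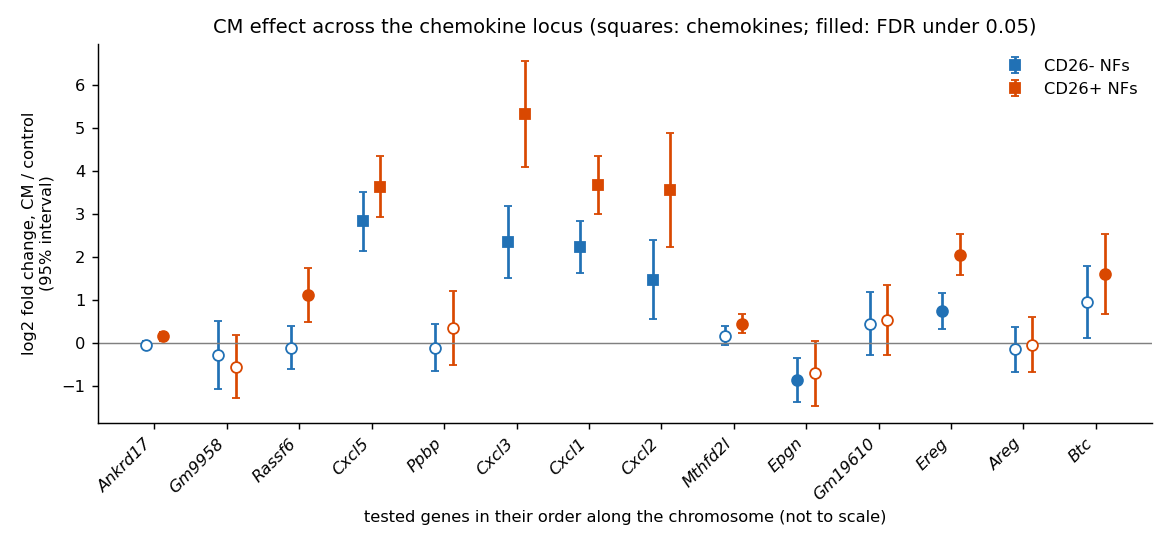
Log2 fold change with CM, with 95% intervals, for the 14 tested genes of the locus in their order along the chromosome, in CD26- (left of each pair) and CD26+ NFs (right). Squares are the 4 chemokines and filled symbols passed an FDR of 0.05. The chemokines reach 1.48 to 5.34, Ppbp between them is open in both cell types, and Ereg is the highest of the other genes at 2.07.

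Of 14 NF-kB subunits and regulators, CM raised 2 in CD26- NFs (7.88% of all tested genes) and 9 in CD26+ NFs (15.2%) and lowered 0, with a median log2 fold change of 0.13 and 0.47. Nfkbiz, a nuclear cofactor induced together with chemokine genes, rose by 0.93 ± 0.13 (FDR 0.000348) in CD26- NFs. In CD26+ NFs Nfkbiz rose by 1.12, a call kept in 24 of 24 fits that each left out 1 library or line (FDR up to 0.000304). Nfkb1, a DNA-binding subunit, was at 0.20 ± 0.07 in CD26- NFs (FDR 0.0494, lost in 19 of the 31 alternatives) and rose by 1.05 ± 0.07 (FDR 3.44e-08) in CD26+ NFs. Relb, another subunit, rose by 1.17 ± 0.11 (FDR 1.25e-06) in CD26+ NFs and was at 0.28 ± 0.11 (FDR 0.0862) in CD26- NFs. The difference between the CM effects passed with a positive sign for 7 of the 14 genes and with a negative sign for 0, where 4.53% and 3.01% of all tested genes did. Among the 7 was Nfkbie, an inhibitor gene, with 1.26 ± 0.23 (FDR 0.00542). In control medium, 12 of the 14 were lower in CD26+ NFs and 1 was higher, where 25.4% and 25% of all tested genes were, with Tnfaip3, which encodes the inhibitor A20, at -2.40 ± 0.32 (FDR 8.85e-06), Nfkb2 at -0.45 ± 0.08 (FDR 0.000222) and Ikbkg at -0.37 ± 0.07 (FDR 0.000184). In tumor CM, 5 of the 14 were higher and 5 lower in CD26+ NFs, close to the 29.3% of all tested genes in each direction.

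Receptors and adaptors that feed into this pathway moved in both directions. Of 13, CM raised 2 and lowered 2 in CD26- NFs (7.88% and 7.28% of all tested genes), and raised 6 and lowered 2 in CD26+ NFs (15.2% and 13.4%). Il1rap, the accessory chain of the interleukin 1 receptor, rose by 0.82 ± 0.12 (FDR 0.000362) and 1.13 ± 0.12 (FDR 3.31e-06). Il17ra, a receptor chain for interleukin 17, fell by 1.34 on the log2 scale in CD26+ NFs (FDR 3.74e-05). In CD26- NFs Il17ra was at -0.59 and passed in 8 of 24 fits that each left out 1 library or line (FDR up to 0.116). Il1r1, the receptor that signals for interleukin 1, was higher in CD26+ than in CD26- NFs in both media, by 1.82 ± 0.11 (FDR 3.14e-09) and 1.47 ± 0.08 (FDR 2.00e-10). Between the cell types, 4 of the 13 were higher and 2 lower in CD26+ NFs with control medium, where 25% and 25.4% of all tested genes were. With CM, 7 were higher and 2 lower, where 29.3% of all tested genes were in each direction, and the media were not compared by a test.

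Of 8 factors that govern the decay or stability of such transcripts, CM raised 1 in CD26- NFs (7.88% of all tested genes), and raised 3 and lowered 1 in CD26+ NFs (15.2% and 13.4%). Zc3h12a, which encodes the ribonuclease Regnase-1 and is itself an NF-kB target, was the gene that rose in both, by 1.31 ± 0.13 (FDR 3.16e-05) and 1.45 ± 0.13 (FDR 6.15e-07). Its difference between the CM effects was 0.14 ± 0.17 (FDR 0.657). Zfp36l2, a gene for a protein that binds AU-rich elements, rose by 0.63 ± 0.16 (FDR 0.00654) in CD26+ NFs. Arid5a, whose product stabilises such transcripts, was lower in CD26+ than in CD26- NFs in control medium by -0.67 ± 0.19 (FDR 0.00613) and in CM by -0.58 ± 0.14 (FDR 0.00133). With control medium, CD26+ NFs had 3 of these 8 genes higher and 3 lower, where 25% and 25.4% of all tested genes were. With CM, 2 were higher and 1 lower, below the 29.3% of all tested genes in each direction.

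A list of 10 other genes tied to neutrophils, among them the adhesion genes Icam1 and Sele, had 9 tested genes. CM raised 5 and lowered 1 of these in CD26- NFs (7.88% and 7.28% of all tested genes), and raised 6 and lowered 1 in CD26+ NFs (15.2% and 13.4%). The median was 0.91 and 2.03 on the log2 scale, and the lowest value was -1.19 and -1.29. Il6, for interleukin 6, rose by 1.60 ± 0.32 (FDR 0.00320) and 2.99 ± 0.35 (FDR 9.17e-06). Saa3, for an acute-phase protein, went from at most 6 reads per library to between 129 and 1832 in CD26- NFs (FDR 0.00555) and from at most 23 to between 275 and 21552 in CD26+ NFs (FDR 4.86e-05). Csf1, for the macrophage growth factor, rose by 0.40 ± 0.10 (FDR 0.0111, and 0.0754 without CD26- control replicate 3) and 0.63 ± 0.10 (FDR 0.000172). Lif, for leukemia inhibitory factor, was at 0.36 ± 0.16 (FDR 0.133) in CD26- NFs and rose by 1.52 ± 0.17 (FDR 6.79e-06) in CD26+ NFs, a difference of 1.17 ± 0.23 (FDR 0.00636). Csf3, for the granulocyte growth factor G-CSF, rose by 1.34 ± 0.39 (FDR 0.0293) and 2.13 ± 0.56 (FDR 0.00851), and was lower in CD26+ than in CD26- NFs in control medium by -2.91 ± 0.59 (FDR 0.000483) and in CM by -2.12 ± 0.32 (FDR 2.37e-05). Its CM effect in CD26- NFs held in 17 of 24 fits that each left out 1 library or line, being lost without any 1 of the CD26- control libraries, CM replicate 8 or line 10-SJK-221, 18-MCB-12 or 13-MCB-90 (FDR up to 0.141), and that in CD26+ NFs was lost without control replicate 11 (FDR 0.0562).

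Across the 18 libraries, the profile of each member was also set beside those of all other tested genes. By Pearson's r of log2 CPM, Cxcl5 was most like Ccl7, a monocyte chemokine gene, with r = 0.987, and Zc3h12a, with r = 0.977. Cxcl1 was most like H2-T10 (0.977) and Ccl11 (0.969), Cxcl3 was most like Sh3bp5 (0.977) and Prdx6 (0.975), and Cxcl2 was most like Lmbrd1 (0.968) and Nadk (0.960). Among the members, r was highest between Cxcl1 and Cxcl3 (0.947) and lowest between Cxcl2 and Cxcl5 (0.644). These values describe libraries that share 4 groups and, in the CM groups, 6 tumor lines, and carry no test.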

How the data were processed

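RNA of 18 libraries was sequenced after a stranded mRNA preparation. By the submitters' processing notes, the authors aligned reads with HISAT2 2.1.0 to GRCm38 and counted them per gene with HTSeq. The HTSeq version, strand setting and annotation release are not given in the sources used here. The deposited table holds raw read counts of 55486 genes, and 1 row without a gene, with 0 counts, was left out.

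Counts were tested with edgeR 4.0.16 in R 4.3.3 (TMM scaling, filterByExpr by group, quasi-likelihood F test, Benjamini-Hochberg adjustment over 14273 genes, threshold 0.05) in a single fit of the 4 groups. Tested genes took up 99.9% of the reads in the library where they took up least. CPM are counts per 1e+06 of the scaled library size, and CPM per kb divides by the length of the principal GENCODE M21 transcript. The scripts were tested on simulated data. Intervals of read ratios cover counting error only, at 95%.

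The members and the gene lists were chosen with earlier results of these data known. The text names the 4 members, all tested genes of lists with up to 5, and from longer lists only genes among the 3 with the smallest p of a comparison. For likeness, genes come from the 3 with the highest r, and marker genes were named after their values were seen. Libraries that received CM of the same tumor line pair across the cell types by the labels, and the deviations of the pairs from their group means correlated with r between 0.247 and 0.406 in 6 of 6 lines. Alternatives were DESeq2 1.42.0, other scalings and filters, the line as a block, a log2 limit of 2, and fits without a library or line. Part of the tumor genotype is not reported here.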

Additional observations from a re-analysis of the deposited data

Results flagged for a closer look

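For 13 of the genes that the naming rule selects, the CM effect differed between CD26+ and CD26- NFs in the edgeR test of the difference itself (n = 6 CM and 3 control libraries of each cell type). The rule takes genes with the smallest p of this same difference, so the 13 does not measure how common such differences are. Over all tested genes, 4.53% passed with a positive and 3.01% with a negative difference. Among the members, the log2 difference, CD26+ minus CD26-, was 1.43 for Cxcl1 and 2.98 for Cxcl3. Of the 7 NF-kB genes that passed, 5 are among the 13, with 0.85 for Nfkb1, 0.89 for Relb, 1.26 for Nfkbie, 0.52 for Nfkb2 and 1.41 for Tnfaip3. Tnfaip3 (FDR 0.0317) passed in 14 of 24 fits that each left out 1 library or line, with an FDR of up to 0.119, and was lost without any 1 of the CD26- control libraries, CD26+ control replicate 11 or 12, CD26+ CM replicate 15, or line 13-MCB-17, 10-SJK-221, 18-MCB-12 or 13-MCB-90. Of the receptors and adaptors, Tlr2 had 1.29 (FDR 0.00583), Traf6 had 0.37 (FDR 0.0176) and Tnfrsf1a had -0.35 (FDR 0.0208). Khsrp, for an RNA-binding protein that promotes decay, had -0.33 (FDR 0.0239). Of 24 fits that each left out 1 library or line, Traf6 passed in 22 (lost without CD26- control replicate 3 or CD26+ control replicate 12, FDR up to 0.0563), Tnfrsf1a in 22 (without CD26- control replicate 3 or CD26+ control replicate 11, up to 0.0684) and Khsrp in 21 (without CD26- control replicate 3, CD26+ control replicate 12 or line 13-MCB-17, up to 0.0738). Without the filter on low counts, Tnfrsf1a and Khsrp did not pass either. Tlr2, Nfkb1, Nfkb2, Relb, Nfkbie and Lif passed in 24 of the 24. Lif had 1.17 and the neighbouring Ereg had 1.31, lost without CD26+ control replicate 11 (FDR 0.0584). In the 2 CM groups, no library lay outside its group for any of the 4 members by Dixon's test; control groups of 3 were not tested.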

How the results depend on the processing

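Over the alternatives of the 5 comparisons, 603 values of the members kept their direction, and the correlations between lines did not. Of the 603, 553 kept their side of the threshold, 38 fell short of it and 12 passed it anew. With a log2 limit of 2, the members called for the CM effect in CD26- NFs were 3 in place of 4 (Cxcl2, at 1.48, was lost), and in control medium 2 in place of 3 (Cxcl1, at -1.20, was lost). A mean of at least 5 CPM removed Cxcl2 from the test in every comparison. In tumor CM, 1 of the 4 members differed between the cell types. The count was 0 with the log2 limit, and 1 to 2 over the fits without a library or line. For the difference between the CM effects, 2 members passed. The count was 1 with the log2 limit, 3 with DESeq2, which adds Cxcl2 (2.12, FDR 0.0389), and 0 to 3 without a library or line. Over all tested genes, this difference had 1075 calls, 1528 with DESeq2, 2412 without line 13-MCB-138 and as few as 339 without CD26+ control replicate 11. The CM effect in CD26- NFs had 2164 calls over all genes and as few as 825 without CD26- control replicate 3. With the log2 limit, calls over all genes were 129 and 287 for the CM effects (2164 and 4087 without it), 852 in control medium (7186), 594 in tumor CM (8360) and 56 for the difference.

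With the CM line as a replicate block, 2 members differed in tumor CM, Cxcl5 and Cxcl2, among 8999 calls over all genes against 8360 without the block, and 2516 genes were called for the difference. The block together with leaving out line 13-MCB-138, chosen after seeing the data, gave 2 in tumor CM, among 9045 calls over all genes, and 4 for the difference between the CM effects, among 3664. The block changed no other call of the members. The cause of these changes was not tested. Levels of Cxcl2 and Cxcl3 in CD26+ NFs in control medium rest on 3 to 11 reads per library, which limits every fold change against them.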

Other observations

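Among the 12 CM libraries, taken as deviations from their group means, Cxcl5 was again most like Ccl7 (r = 0.938), and Cxcl1 was most like Yy1 (0.943), Cxcl3 most like Tgif2 (0.975) and Cxcl2 most like Zc3h12a (0.932). Between the members, r was 0.906 for Cxcl1 and Cxcl5 and 0.562 for Cxcl2 and Cxcl5. These are descriptions over libraries that share tumor lines, and replicate 18 is low for all 4 members.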
